A study of Mus musculus with 7 samples.

Results

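The genes described here encode scaffold proteins of the postsynaptic density and the neuronal subunits of the calcium/calmodulin-dependent kinase CaMKII. They were taken by name through their Entrez identifiers and make up 9 of the 26286 genes counted. The scaffold genes are Dlg2 (Entrez 23859, chromosome 7), Dlg4 (13385, chromosome 11), Dlgap1 (224997, chromosome 17), Shank1 (243961, chromosome 7), Shank2 (210274, chromosome 7), Shank3 (58234, chromosome 15) and Homer1 (26556, chromosome 13). The kinase genes are Camk2a (12322, chromosome 18) and Camk2b (12323, chromosome 11). All 9 passed the filter on low counts, as did 13681 genes in all. Gene expression was measured by RNA-seq of polyA RNA extracted from embryonic mouse cortical neurons (E16.5). The compared animals were 4 KAT7 mutant and 3 wild type mice, of strain C57BL/6 and labelled male. KAT7 is a histone acetyltransferase, and the mutant allele, any Cre driver and the way in which neurons were obtained are not stated in what was available here.

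At an excitatory synapse, receptors in the postsynaptic membrane are held by layers of scaffold proteins. MAGUK proteins such as PSD-95 (Dlg4) and PSD-93 (Dlg2) bind receptor and adhesion molecule tails next to the membrane, DLGAP proteins link them to SHANK proteins deeper in the density, and Homer proteins tie SHANK to metabotropic receptors and to calcium stores. CaMKII is a multimeric kinase that is activated by calcium-bound calmodulin and is highly abundant at mature synapses. In rodent cortex most synapses form after birth, and CaMKII beta is present earlier than CaMKII alpha.

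Libraries held 8272487 to 8813060 counts, so that 1 count was worth 0.113 to 0.122 CPM (counts scaled to a common library size with TMM factors). Kat7 was at 0.598 ± 0.420 CPM in KAT7 mutant (SD, n = 4) and 98.9 ± 3.68 CPM in wild type (SD, n = 3). Summed over the 10 listed markers of cortical excitatory neurons, the level was 7843 to 8096 CPM in KAT7 mutant and 7804 to 8452 CPM in wild type, with 3 higher and 4 lower. Marker sums of other cells separated the genotypes for some cell types and overlapped for others. Radial glia markers summed to 458 to 508 CPM in KAT7 mutant and 699.8 to 721 CPM in wild type, with 6 of 9 tested lower. For astrocyte markers the sums were 14.0 to 24.5 CPM in KAT7 mutant and 31.9 to 40.5 CPM in wild type, with 3 of 4 lower. Interneuron markers summed to 357 to 486 CPM in KAT7 mutant and 283 to 446 CPM in wild type, with 5 of 10 higher and 1 lower. Oligodendrocyte lineage markers, at 21.9 to 40.4 CPM in KAT7 mutant and 14.3 to 19.0 CPM in wild type, were higher in 4 of 6. The same held for 4 of 6 tested microglia markers, at 27.1 to 35.9 CPM in KAT7 mutant and 17.6 to 20.5 CPM in wild type. Intermediate progenitor markers were at 143 to 177 CPM in KAT7 mutant and 189 to 217 CPM in wild type, with 2 of 4 tested lower. Endothelium and pericyte markers summed to 9.11 to 10.1 CPM in KAT7 mutant and 9.62 to 12.1 CPM in wild type, with 1 of 3 tested lower, and none of the 3 tested blood markers was called, at 29.1 to 92.9 CPM in KAT7 mutant and 11.4 to 75.5 CPM in wild type. The endothelial marker Cldn5 and the microglia marker P2ry12 were near 0 in every library. The part of these cells in the results below was not tested, and in bulk samples fewer cells of a type and less RNA per cell cannot be told apart.

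Of the 9 genes, Dlg2, Dlgap1 and Shank3 fell in KAT7 mutant and none rose in the quasi-likelihood test of edgeR, called at an adjusted p under 0.05 (Benjamini-Hochberg, over all tested genes). Calls were made for 28.9% of all tested genes, with 15.8% lower and 13.1% higher. The 3 falls lay between -0.54 and -0.38 on the log2 scale, and the other 6 genes were between -0.13 and 0.21. The median log2 fold change of the 9 was -0.10, and that of all tested genes was 0.00. In the 3 called genes every mutant library lay below every wild type library, a pattern found in 18.8% of tested genes (35.3% did not overlap in either direction), and in the other 6 the libraries of the genotypes overlapped. The plot of CPM by library shows these 3 separations.

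**Figure D1:**
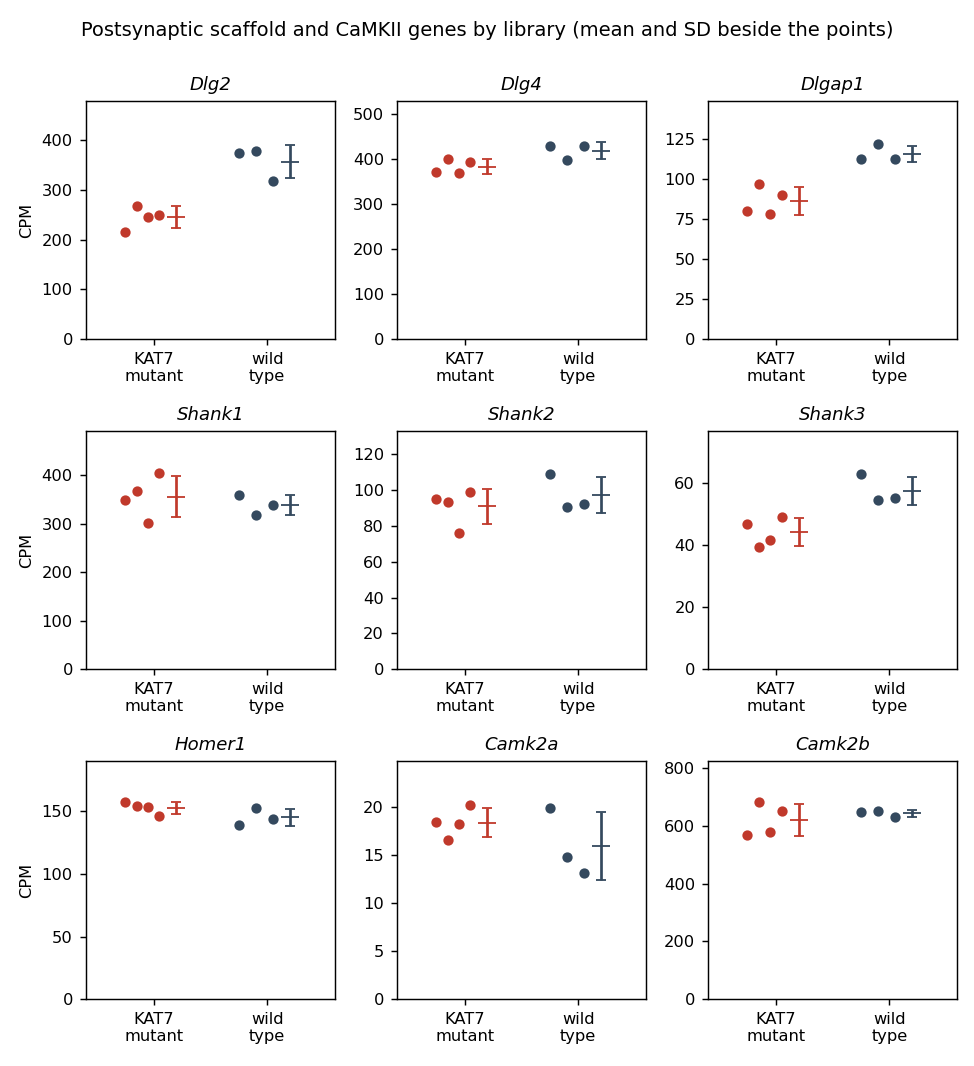
Level of each of the 9 genes in CPM (y axis, from 0) in the 4 KAT7 mutant libraries (red, left) and the 3 wild type libraries (dark blue, right), with the mean and SD beside the points. The mutant points lie below all wild type points for Dlg2, Dlgap1 and Shank3, and overlap them for the other 6 genes.

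Among the MAGUK genes, Dlg2 had the largest fall of the 9. It stood at 216, 268, 246 and 250.2 CPM in KAT7 mutant replicates 1 to 4, against 373, 377 and 318 CPM in wild type replicates 1 to 3. The highest mutant library was below the lowest wild type library, wild type replicate 3. Dlg2 averaged 245 ± 21.6 CPM in KAT7 mutant (SD, n = 4) and 356 ± 33.2 CPM in wild type (SD, n = 3). It fell by 31.3%, a log2 fold change of -0.54 (SE 0.07, edgeR adjusted p = 3.71e-06). Its value lay between -0.62 and -0.49 over the alternatives tried, all of which kept the call.

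Dlg4, which encodes the main scaffold PSD-95, had 371, 401, 369 and 394 CPM in KAT7 mutant and 429, 397 and 429 CPM in wild type. The genotypes overlapped through KAT7 mutant replicate 2 and wild type replicate 2. Its log2 fold change was -0.13 (SE 0.05, edgeR adjusted p = 0.0624), so Dlg4 was not called. This lay close to the threshold: it was called lower without wild type replicate 2 (-0.17, edgeR adjusted p = 0.0384), with library size only (0.0341) and with upper-quartile factors (0.0499), and the alternatives together gave 0.0341 to 0.196.

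The other MAGUK genes were measured in the same libraries. Dlg3, which encodes SAP102, a scaffold of immature synapses, averaged 124 ± 4.21 CPM in KAT7 mutant and 142 ± 8.52 CPM in wild type (SD, n = 4 and 3). It fell by 0.19 on the log2 scale with an edgeR adjusted p of 0.0134. That call was lost without wild type replicate 2 (0.0642) or wild type replicate 3 (0.0821), and MAGUK falls numbered 2 of 4 with all libraries and 1 without wild type replicate 3. Dlg1, which encodes SAP97, was not called at 57.3 ± 2.63 CPM in KAT7 mutant and 51.7 ± 1.29 CPM in wild type (log2 fold change 0.15, edgeR adjusted p = 0.0904).

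The linker gene Dlgap1 encodes GKAP, which joins PSD-95 to SHANK. It had 80.0, 97.0, 78.2 and 90.1 CPM in KAT7 mutant, against 113, 122 and 113 CPM in wild type, and no mutant library reached the wild type range. Dlgap1 averaged 86.3 ± 8.84 CPM in KAT7 mutant (SD, n = 4) and 116 ± 5.20 CPM in wild type (SD, n = 3). It fell by 25.4%, a log2 fold change of -0.42 (SE 0.07, edgeR adjusted p = 9.38e-05), and the value was -0.49 to -0.38 over the alternatives.

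No paralogue of Dlgap1 fell. Dlgap4, the most abundant gene of the family, rose to 538 ± 31.1 CPM in KAT7 mutant (SD, n = 4), against 466 ± 19.8 CPM in wild type (SD, n = 3), or 0.21 higher on the log2 scale (SE 0.05, edgeR adjusted p = 0.00535). Dlgap2 had 13.9 ± 0.933 CPM in KAT7 mutant and 10.4 ± 2.11 CPM in wild type and rose by 0.42 on the log2 scale (edgeR adjusted p = 0.0228). Dlgap3 was not called (0.16, edgeR adjusted p = 0.149), except without KAT7 mutant replicate 3 (0.22, edgeR adjusted p = 0.0369). Both calls were lost without wild type replicate 2, while both estimates stayed above 0. The log2 fold change was then 0.17 for Dlgap4 (edgeR adjusted p = 0.0544) and 0.30 for Dlgap2 (0.152). Called rises in the family numbered 0 in place of 2. Over all genes called rises also dropped without that library, from 1793 to 1273. DESeq2 did not call Dlgap2 (adjusted p = 0.051), nor did edgeR when KAT7 mutant replicate 4 (0.0656) or wild type replicate 3 (0.0825) was left out.

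Of the SHANK genes, which encode the large scaffolds of the deeper density, Shank3 fell and Shank1 and Shank2 were not called. Shank3 stood at 46.9, 39.3, 41.5 and 49.2 CPM in KAT7 mutant, against 62.7, 54.4 and 55.2 CPM in wild type. Its genotypes did not overlap, and wild type replicate 1 was the highest library. Shank3 averaged 44.2 ± 4.58 CPM in KAT7 mutant (SD, n = 4) and 57.4 ± 4.59 CPM in wild type (SD, n = 3). It fell by 23.0%, a log2 fold change of -0.38 (SE 0.08, edgeR adjusted p = 0.00131), and the adjusted p over alternatives was 1.00e-05 to 0.0118.

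Shank1 was the most abundant SHANK gene, at 349, 367, 302 and 403 CPM in KAT7 mutant and 359.6, 318 and 338 CPM in wild type. The mutant libraries spanned the whole wild type range, and the log2 fold change was 0.07 (SE 0.07, edgeR adjusted p = 0.499). Shank2 had 94.9, 93.3, 76.2 and 98.7 CPM in KAT7 mutant and 109, 90.5 and 92.1 CPM in wild type, with a log2 fold change of -0.10 (SE 0.08, edgeR adjusted p = 0.391). KAT7 mutant replicate 3 was the lowest library for both genes.

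Homer1 encodes an adaptor that binds SHANK and group I metabotropic receptors, and its gene also gives rise to a short form induced by activity, which counts per gene do not separate. It had 157, 154, 153 and 146 CPM in KAT7 mutant and 139, 152 and 144 CPM in wild type. The genotypes overlapped, and Homer1 was not called (log2 fold change 0.07, SE 0.05, edgeR adjusted p = 0.318). KAT7 mutant replicate 1, the highest library for Homer1, also had the highest sum over 10 immediate early genes, 479 CPM against 259 to 286 CPM in the other mutant libraries and 237 to 277 CPM in wild type; 1 of 9 tested rose. Without that library Homer1 remained uncalled. Its part in the level of Homer1 was not tested.

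The other Homer genes were called in opposite directions. Homer2 rose to 84.6 ± 3.31 CPM in KAT7 mutant (SD, n = 4), against 72.2 ± 0.342 CPM in wild type (SD, n = 3), or 0.23 higher on the log2 scale (SE 0.06, edgeR adjusted p = 0.00467). Homer3 fell to 18.8 ± 1.13 CPM in KAT7 mutant, against 28.3 ± 4.59 CPM in wild type (SD, n = 4 and 3), with a log2 fold change of -0.59 (SE 0.11, edgeR adjusted p = 0.000288). In the GENCODE M21 annotation 25.4% of the exonic bases of Homer3 are shared with the helicase gene Ddx49 on the opposite strand. Since the strand setting of the counting is not known, reads there cannot be assigned with certainty; Ddx49 was not called (-0.01, edgeR adjusted p = 0.93). Of the 9 genes, Shank1 shared 3.22% of its exonic bases and Shank3 2.95% with another gene, Dlg2 shared 0.921% with 1 gene and 0.461% with another, Dlgap1 shared 0.514%, and the other 5 shared none.

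Camk2b was the most abundant of the 9 genes and was not called. It had 569, 679.6, 576 and 649 CPM in KAT7 mutant and 648, 650.1 and 628 CPM in wild type. The mutant libraries lay on both sides of the wild type libraries, and the log2 fold change was -0.05 (SE 0.06, edgeR adjusted p = 0.522). Camk2a was the least abundant at this age, with 18.5, 16.6, 18.3 and 20.3 CPM in KAT7 mutant and 19.9, 14.9 and 13.1 CPM in wild type. The genotypes overlapped through wild type replicate 1, and Camk2a was not called (log2 fold change 0.21, SE 0.13, edgeR adjusted p = 0.249). Without wild type replicate 1 it was called higher (0.39, edgeR adjusted p = 0.0280), the alternatives together giving 0.0280 to 0.709, and rises among the 9 genes then numbered 1.

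Camk2g, which encodes the gamma subunit, fell to 125 ± 8.06 CPM in KAT7 mutant, against 144 ± 6.68 CPM in wild type (SD, n = 4 and 3), a log2 fold change of -0.21 with an edgeR adjusted p of 0.0102. This was the only fall in its list of 5 tested CaMKII genes, and it was lost without wild type replicate 2 (0.0554). Camk2d, the delta subunit gene, was at 0.950 ± 0.406 CPM in KAT7 mutant and 0.500 ± 0.239 CPM in wild type (SD, n = 4 and 3) and did not pass the filter on low counts.

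Both genes for the endogenous CaMKII inhibitors rose. Camk2n1 had 83.2, 90.0, 88.6 and 84.2 CPM in KAT7 mutant, against 48.1, 49.8 and 46.4 CPM in wild type. The lowest mutant library was far above the highest wild type library. The log2 fold change was 0.85 ± 0.06 (SE), a rise of 79.9%, with an edgeR adjusted p of 2.89e-09. Camk2n2 rose to 79.2 ± 2.99 CPM in KAT7 mutant, against 65.3 ± 2.73 CPM in wild type (SD, n = 4 and 3), with a log2 fold change of 0.28 and an edgeR adjusted p of 0.00153. Set against the CaMKII subunit genes in counts per kilobase, inhibitor transcripts stood at 48.8, 42.4, 49.4 and 45.4 per 100 subunit transcripts in KAT7 mutant and at 33.9, 31.5 and 33.3 in wild type, without overlap. KAT7 mutant thus exceeded wild type by 13.6 per 100, or by 7.67 when counts were not scaled for length. This ratio was chosen after the values were seen and was not tested.

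**Figure D2:**
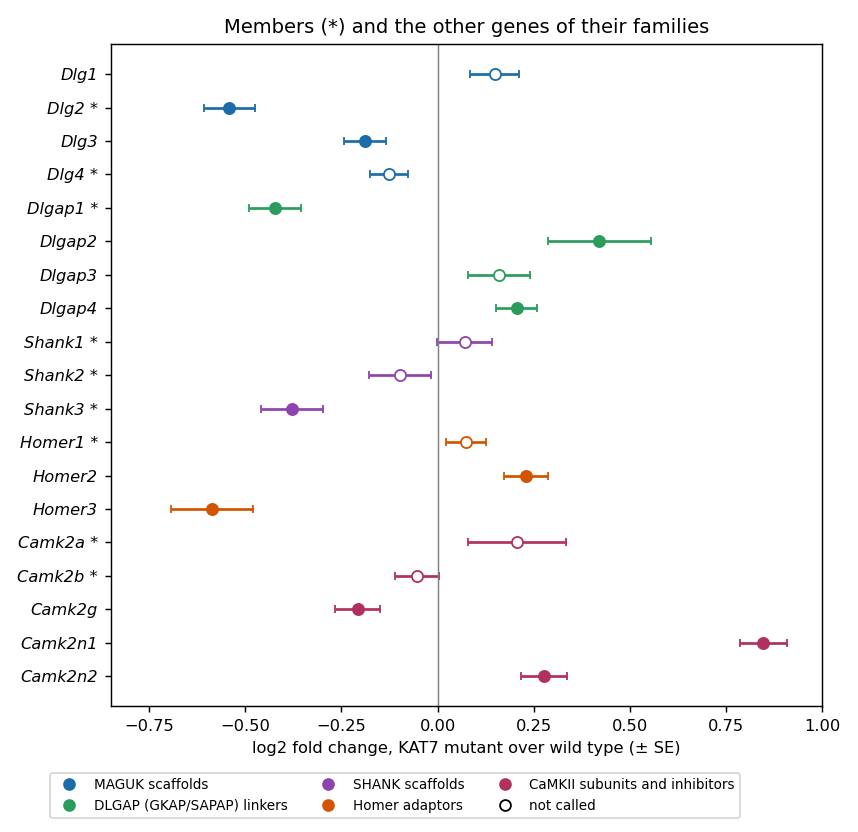
Log2 fold change of KAT7 mutant over wild type (x axis) with its SE for each tested gene of the MAGUK, DLGAP, SHANK, Homer and CaMKII families, where an asterisk marks the 9 genes, a filled point a call by edgeR and an open point no call. Calls in both directions are seen within the DLGAP, Homer and CaMKII families, with Homer3 lowest at -0.59 and Camk2n1 highest at 0.85.

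Levels were also compared between genes, as CPM per kilobase of the deposited gene length. In KAT7 mutant the order of levels was Camk2b at 148 ± 13.0, Dlg4 at 115 ± 4.85, Shank1 at 46.8 ± 5.55, Dlg2 at 33.8 ± 2.97 and Homer1 at 26.7 ± 0.830 CPM per kilobase (SD, n = 4). Below them came Shank2 at 12.9 ± 1.42, Dlgap1 at 10.8 ± 1.11, Shank3 at 6.20 ± 0.643 and Camk2a at 3.44 ± 0.284 CPM per kilobase. In wild type it was Camk2b at 153 ± 2.89, Dlg4 at 126 ± 5.60, Dlg2 at 49.1 ± 4.57, Shank1 at 44.6 ± 2.73 and Homer1 at 25.4 ± 1.20 CPM per kilobase (SD, n = 3). The lower levels were Dlgap1 at 14.5 ± 0.651, Shank2 at 13.8 ± 1.46, Shank3 at 8.05 ± 0.644 and Camk2a at 2.98 ± 0.662 CPM per kilobase. Neighbours in the order overlapped across libraries for Shank2 and Dlgap1 in both genotypes and for Dlg2 and Shank1 in wild type only; in KAT7 mutant all libraries of Shank1 were above those of Dlg2. No other neighbours overlapped in either genotype. Per kilobase, Camk2a was at 2.54, 1.91, 2.48 and 2.45 per 100 Camk2b in KAT7 mutant and at 2.41, 1.79 and 1.63 in wild type, so the beta subunit dominated in every library.

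The make-up of each family was compared by library, again in counts per kilobase. In 4 of the 5 families the share of at least 1 gene did not overlap between genotypes. Such separation was common: in CPM, 35.3% of all tested genes did not overlap in either direction. Dlg2, Dlgap1 and Shank3 were already among those genes. Dlg2 made up 18.4 ± 1.10% of the MAGUK transcripts in KAT7 mutant and 23.3 ± 2.12% in wild type, and Dlg4 62.8 ± 0.521% in KAT7 mutant and 59.6 ± 2.15% in wild type (SD, n = 4 and 3). The share of Dlgap1 in its family was 8.84 ± 0.837% in KAT7 mutant and 13.0 ± 1.05% in wild type, while Dlgap4 held 77.7 ± 1.29% in KAT7 mutant and 74.1 ± 1.02% in wild type. Shank3 took 9.44 ± 0.919% of SHANK transcripts in KAT7 mutant and 12.1 ± 0.230% in wild type, and Shank1 71.0 ± 1.11% in KAT7 mutant and 67.1 ± 1.01% in wild type. For Homer3 the share was 18.4 ± 0.960% in KAT7 mutant and 26.6 ± 3.08% in wild type, and for Homer1 63.6 ± 1.47% in KAT7 mutant and 58.5 ± 2.49% in wild type. Shares within CaMKII overlapped for all 4 genes, with Camk2b at 79.7 ± 1.01% in KAT7 mutant and 78.5 ± 0.602% in wild type. Without scaling for length the share of Homer1 differed by 0.516 percentage points, KAT7 mutant minus wild type, in place of 5.07, and that of Homer3 by -4.15 in place of -8.22. Shares of 1 sum are not independent of each other, and no test was made. Summed over the family, MAGUK transcripts were at 183 ± 6.83 CPM per kilobase in KAT7 mutant and 211 ± 3.34 in wild type, without overlap. The other sums overlapped. SHANK transcripts were at 65.9 ± 7.25 in KAT7 mutant and 66.4 ± 4.73 in wild type, and DLGAP transcripts at 122 ± 7.02 and 111 ± 3.86. In the same order, Homer transcripts were at 42.0 ± 0.685 and 43.4 ± 2.40, and CaMKII subunit transcripts at 185 ± 14.6 and 195 ± 3.03.

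**Figure D3:**
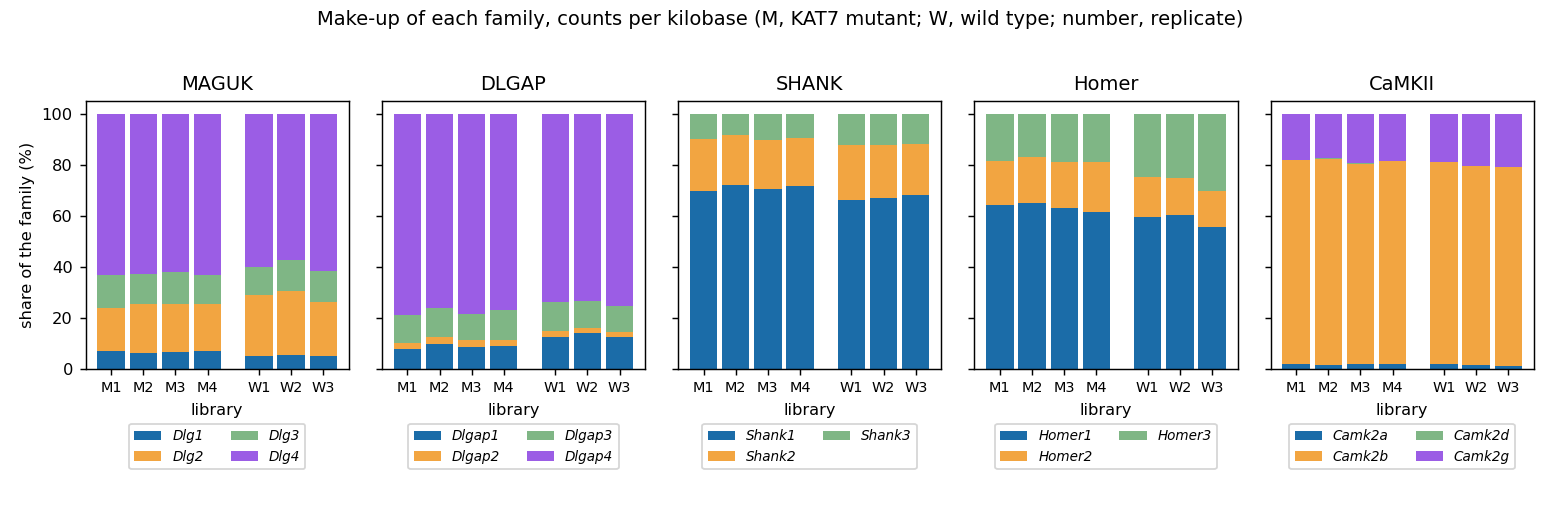
Share of each gene in the summed counts per kilobase of its family (y axis, percent) in each of the 4 KAT7 mutant libraries (M1 to M4) and 3 wild type libraries (W1 to W3). The mutant bars hold less Dlg2, Dlgap1, Shank3 and Homer3 than every wild type bar, and the CaMKII bars overlap for every gene.

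The starts of the called genes were set beside each other because all 3 fell. Windows of 250 bases before each annotated start were taken from a table of RefSeq promoters (GRCm38.p6), in which 6 of the 9 genes were matched. Camk2a, Shank1 and Shank2, none of them called, had no match and are missing from the comparison below. Here capitals mark each CG dinucleotide, 5′ to 3′ on the strand of the gene. Shank3 (chr15:89499358-89499607, plus strand), both Dlgap1 starts (chr17:69968823-69969072 and chr17:70561497-70561746, plus strand) and the first of 3 Dlg2 starts (chr7:91090536-91090785, plus strand) are shown with Camk2b (chr11:6065749-6065998, minus strand), the most abundant gene that was not called.
Shank3: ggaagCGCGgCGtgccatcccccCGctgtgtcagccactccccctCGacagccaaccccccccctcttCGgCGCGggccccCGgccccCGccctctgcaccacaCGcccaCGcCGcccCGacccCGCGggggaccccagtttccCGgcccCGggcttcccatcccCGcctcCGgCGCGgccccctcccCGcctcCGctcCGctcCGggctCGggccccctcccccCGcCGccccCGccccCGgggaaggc
Dlgap1 start 1: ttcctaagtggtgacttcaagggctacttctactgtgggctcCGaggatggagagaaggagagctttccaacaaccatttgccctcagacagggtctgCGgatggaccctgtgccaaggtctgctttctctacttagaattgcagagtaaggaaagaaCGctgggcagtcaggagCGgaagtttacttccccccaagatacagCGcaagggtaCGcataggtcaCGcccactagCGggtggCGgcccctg
Dlgap1 start 2: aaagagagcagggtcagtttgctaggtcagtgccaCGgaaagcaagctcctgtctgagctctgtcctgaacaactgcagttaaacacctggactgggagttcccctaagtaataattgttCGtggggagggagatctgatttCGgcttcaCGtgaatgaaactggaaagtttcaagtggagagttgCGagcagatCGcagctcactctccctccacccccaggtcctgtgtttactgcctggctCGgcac
Dlg2 start 1: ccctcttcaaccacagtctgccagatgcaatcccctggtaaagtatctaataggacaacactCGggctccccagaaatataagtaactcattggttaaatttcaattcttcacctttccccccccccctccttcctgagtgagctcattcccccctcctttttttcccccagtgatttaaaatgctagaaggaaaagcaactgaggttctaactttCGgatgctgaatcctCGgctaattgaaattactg
Camk2b: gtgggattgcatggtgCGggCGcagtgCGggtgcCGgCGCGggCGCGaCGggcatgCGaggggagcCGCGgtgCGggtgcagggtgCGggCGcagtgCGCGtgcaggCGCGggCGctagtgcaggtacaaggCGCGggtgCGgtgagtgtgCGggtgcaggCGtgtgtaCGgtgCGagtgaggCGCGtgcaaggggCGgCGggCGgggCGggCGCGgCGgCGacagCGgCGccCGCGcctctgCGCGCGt
The called genes did not share a CG density. Shank3 held 31 CG, the Dlgap1 windows 9 and 7, and the 3 Dlg2 windows 3, 1 and 2. Of the matched genes that were not called, Camk2b held 44, the 3 Dlg4 windows 4, 11 and 14, and the Homer1 windows 21 and 7, so the counts of called and uncalled genes overlapped. Over 32851 such windows the median was 6 CG and the quartiles were 2 and 16, and 92.1% held at least 1. The letters GGGCGG, searched on both strands and containing a CG, were found 4 times before Shank3, 3 times before Camk2b, once before the third Dlg4 start and not in the Dlgap1, Dlg2 or Homer1 windows, and 32.7% of all windows held them. Which start was used in these libraries is not known from counts per gene.

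Related genes of the postsynaptic density were followed in 11 lists by role, 103 genes with the 9 included, of which 101 were tested. Of the 92 tested genes other than the 9, 28 rose, or 30.4%, and 23 fell, against 13.1% rising and 15.8% falling among all tested genes. Among all tested genes with a mean log2 CPM of at least 4, 17.1% rose and 14.3% fell. The counts per list given below stand beside these same shares, and no list was tested. The median log2 fold change of the 92 was 0.06, and calls ran both ways. In the plot of fold changes by role, most calls were small and single genes stood far out.

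**Figure D4:**
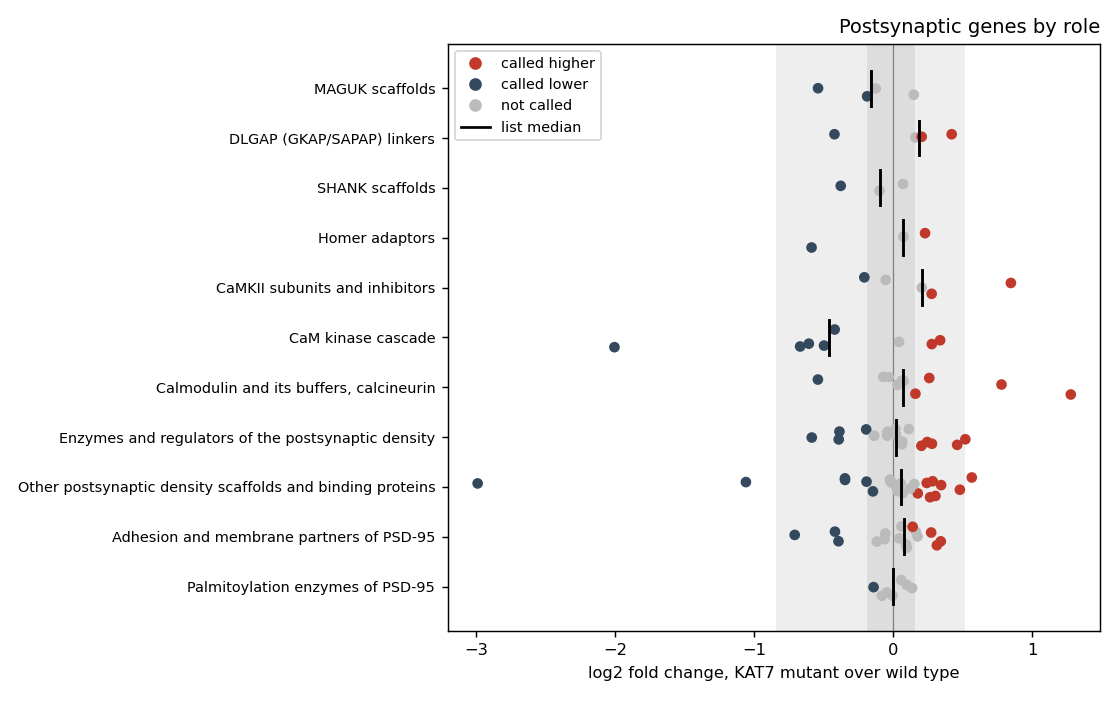
Log2 fold change of KAT7 mutant over wild type (x axis) of each tested gene in 11 lists of postsynaptic genes (rows), coloured by call, with the list median as a black bar, and shaded bands for the middle 50% (dark) and 90% (light) of all tested genes. Frmpd4 at -2.99 and Camk1 at -2.01 lie farthest to the left, Nrgn at 1.28 farthest to the right.

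In the CaM kinase cascade, the calmodulin-dependent kinases beside CaMKII, 5 of 8 genes fell and 2 rose, with a median of -0.46. Among all tested genes 15.8% fell and 13.1% rose. Camk1, which encodes CaMKI alpha, had 8.30, 8.35, 9.21 and 9.17 CPM in KAT7 mutant, against 37.9, 33.6 and 34.2 CPM in wild type. It fell by 2.01 on the log2 scale (SE 0.10, edgeR adjusted p = 1.00e-11), with the genotypes wide apart. Camk1 shares 3.88% of its exonic bases with Ogg1 on the opposite strand, which was not called (-0.31, edgeR adjusted p = 0.146). Camk1g fell by 0.67 (edgeR adjusted p = 2.20e-06) and Camkk1, an upstream kinase of CaMKI and CaMKIV, by 0.61 (8.34e-05). Camk1d rose by 0.34 (edgeR adjusted p = 0.000177) and Camk4, a nuclear kinase, by 0.28 (0.000500).

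Among genes for calmodulin and the proteins that bind it, 4 of 10 tested rose and 1 fell, at a median log2 fold change of 0.07. Calm3, which encodes calmodulin, fell to 331 ± 16.7 CPM in KAT7 mutant, against 482 ± 10.2 CPM in wild type (SD, n = 4 and 3), with a log2 fold change of -0.54 and an edgeR adjusted p of 5.67e-08. Nrgn encodes neurogranin, a postsynaptic protein that binds calmodulin at low calcium, and had 21.1, 28.1, 26.7 and 21.9 CPM in KAT7 mutant, against 9.62, 10.5 and 10.1 CPM in wild type. It rose by 1.28 on the log2 scale (SE 0.12, edgeR adjusted p = 1.44e-07), and Pcp4, another calmodulin-binding protein gene, rose by 0.78 (0.000153). The calcineurin genes of the list were not called.

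Enzymes and regulators of the density rose in 5 and fell in 4 of 18 genes. Nos1, a nitric oxide synthase bound by PSD-95, rose by 0.52 on the log2 scale (edgeR adjusted p = 0.000476), Sipa1l1, a regulator of Rap GTPases, by 0.46 (3.72e-06) and the neurabin gene Ppp1r9a by 0.28 (0.000369). Iqsec3 fell by 0.59 (edgeR adjusted p = 0.000918), Iqsec2 by 0.39 (0.00399), both exchange factors for Arf GTPases, and the kinase gene Plk2 by 0.39 (1.81e-05). The list median was 0.02.

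Among 23 other scaffolds and binding proteins 8 rose and 6 fell, with a median of 0.05. Frmpd4, which encodes a PSD-95-binding protein known as Preso, had 2.57, 1.85, 1.54 and 2.45 CPM in KAT7 mutant, against 15.3, 17.6 and 17.4 CPM in wild type. It was the largest fall of the 101 tested genes, with a log2 fold change of -2.99 (SE 0.17, edgeR adjusted p = 4.08e-11). Lin7a, a PDZ adaptor gene, fell to 18.9 ± 1.71 CPM in KAT7 mutant, against 39.4 ± 5.15 CPM in wild type (SD, n = 4 and 3), by 1.06 on the log2 scale (edgeR adjusted p = 1.03e-07). Cnksr2, a scaffold gene of Ras signalling, fell by 0.35 (edgeR adjusted p = 0.000240). Tanc1 rose by 0.57 (edgeR adjusted p = 0.00220), Magi3 by 0.48 (0.00987) and Begain by 0.34 (0.00293); Magi3 was not called without wild type replicate 2 (0.0770).

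**Figure D5:**
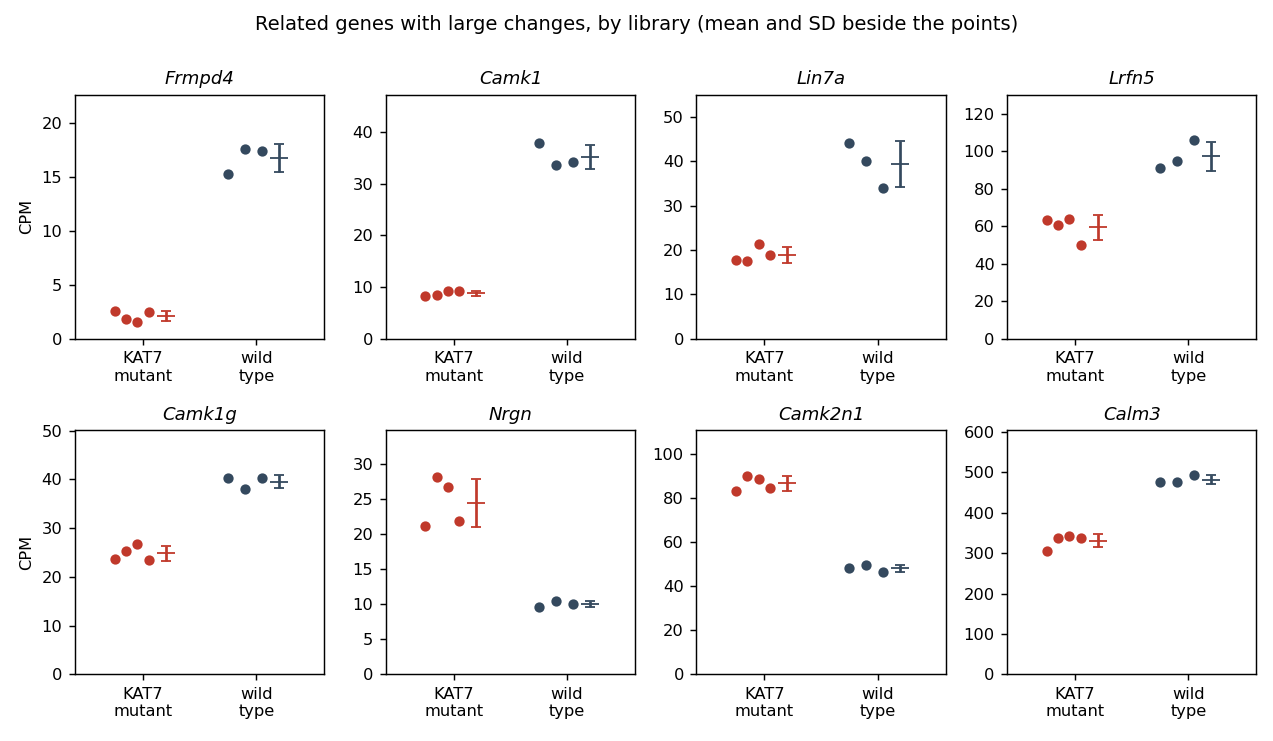
Level in CPM (y axis, from 0) of 8 related genes in the 4 KAT7 mutant libraries (red, left) and the 3 wild type libraries (dark blue, right), with the mean and SD beside the points. The genes were chosen for their large changes. None shows overlap, as held for 35.3% of all tested genes. Nrgn and Camk2n1 are higher and the other 6 lower in KAT7 mutant.

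Adhesion and membrane partners of PSD-95 rose in 4 and fell in 3 of 16 tested genes, with a median of 0.08. The adhesion gene Lrfn5 fell to 59.4 ± 6.59 CPM in KAT7 mutant, against 97.2 ± 7.60 CPM in wild type (SD, n = 4 and 3), by 0.71 on the log2 scale (edgeR adjusted p = 7.28e-07). Adam23 fell by 0.42 (edgeR adjusted p = 0.000309) and Grin2b, an NMDA receptor subunit gene, by 0.39 (0.00309). Cacng2, which encodes the AMPA receptor partner stargazin, rose by 0.34 (edgeR adjusted p = 0.000253), Lgi1, which encodes a secreted ligand of the ADAM22 family, by 0.31 (0.00350) and Lrrtm2 by 0.27 (0.00286). Of 7 genes for palmitoylation enzymes, which attach or remove the lipid that holds PSD-95 at the membrane, only Abhd17c was called. It fell by 0.14 (edgeR adjusted p = 0.0462), and it was not called without any single library other than KAT7 mutant replicate 3, nor with RLE factors, no count filter or DESeq2, its edgeR and DESeq2 adjusted p ranging up to 0.134.

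The genes with levels most like those of each of the 9 were sought by Pearson correlation of log2 CPM over the 7 libraries, among 7681 named genes with a mean log2 CPM of at least 4. For Dlg2 they were Prnp (r = 0.991) and Cyth3 (r = 0.989), for Dlgap1 Dgcr2 (r = 0.991) and Neu1 (r = 0.991), and for Shank3 Tmem181b-ps (r = 0.982) and Pdcd4 (r = 0.981). For the genes not called, they were Ppdpf (r = 0.977) and H1f10 (r = 0.976) for Dlg4, Cacna1b (r = 0.969) for Shank1, and Ccnh (r = 0.956) and Cacna1e (r = 0.949) for Shank2. Homer1 was closest to Ddx21 (r = 0.982) and Hnrnpu (r = 0.978), Camk2a to Zbed3 (r = 0.989) and Clpb (r = 0.976), and Camk2b to Pacs2 (r = 0.947) and Pheta1 (r = 0.942). None of the 9 was among the 2 closest genes of another. These values share the contrast of genotypes and the 7 libraries and are a description only.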

How the data were processed

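The authors deposited raw counts per gene (whole numbers) for 7 libraries in 1 table, with Entrez identifiers and a gene length. Per the submitters' processing notes, featureCounts and mm9 were used; the aligner, annotation and strand setting are not stated in what was available here. Symbols came from an NCBI table of GRCm38.p6 (24176 of 26286 identifiers). Promoter windows and exon overlaps are on GRCm38, so no position was set against the counts.

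Genes were filtered with filterByExpr (minimum count 10) and tested in edgeR (version 4.0.16, under R 4.3.3) by quasi-likelihood F tests, two-sided, with TMM factors, genotype as the only term, with Benjamini-Hochberg adjustment over 13681 genes. SE is |log2 fold change| divided by sqrt(F). CPM use TMM-adjusted totals of the tested genes. The replicates are separate mice per the design text. No 2 libraries within a genotype agreed within counting noise (chi-square per gene 2.06 to 3.67).

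The members and lists were chosen with earlier results of these data known, so lists have no test. From the families of the members every gene is named, and of other lists up to 3 called genes per direction, of which 1 is left out, as is 1 of the genes most like a member. Alternatives were RLE, upper-quartile or no factors, DESeq2 (1.42.0), dropping the count filter or setting it to CPM 1 in 3 libraries, voom in limma (3.58.1), robust edgeR, blocking on replicate number, an adjusted p under 0.01, each library left out, and shares without length scaling.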

Additional observations from a re-analysis of the deposited data

Results flagged for a closer look

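In 3 of 49 genes examined, 1 of the 4 KAT7 mutant libraries lay far from the other 3 by Dixon's ratio, where chance flags about 1 in 20 groups. Homer3 was lowest in KAT7 mutant replicate 2, at 17.2 CPM, with the other mutant libraries at 19.2 to 19.6 CPM. Tanc1 was highest in KAT7 mutant replicate 2, at 13.3 CPM, with the others at 11.2 to 11.5 CPM. Kat7 was highest in KAT7 mutant replicate 4, at 1.22 CPM, with the others at 0.351 to 0.464 CPM. In each case the flagged value stayed on the same side of all wild type libraries as the other mutant libraries.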

How the results depend on the processing

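Under every alternative tried Dlg2, Dlgap1 and Shank3 kept their falls. The count of falls among the 9 genes was 3 to 4 with 1 library left out, and that of rises 0 to 1. It was 4 with upper-quartile factors or library size only, through Dlg4. Over all genes 1793 rose and 2163 fell; at an adjusted p under 0.01 these were 1034 and 1532, and with 1 library left out 1273 to 1776 and 1826 to 2212. Of the postsynaptic genes 28 rose and 26 fell, with 21 to 29 and 23 to 25 when 1 library was left out. With the replicate number as a block 1460 genes rose and 1943 fell, 3261 of the calls being shared with the fit without it, and among the 9 genes 3 fell and 0 rose; of the genes named, Dlg3 (adjusted p = 0.0576), Dlgap2 (0.0557) and Abhd17c (0.0635) lost their calls. Deviations of same-numbered libraries correlated at -0.029 to 0.018, and those of differently numbered libraries at -0.037 to 0.052. The numbers thus gave no sign of pairing, which so few libraries cannot exclude. For Dlg2, Dlgap1, Dlgap4, Homer1 and Homer3 the difference in family share moved most without length scaling, where long genes weigh more by construction. KAT7 mutant minus wild type, in percentage points, it went from -4.88 to -6.58 for Dlg2. It was then -5.62 for Dlgap1, 4.98 for Dlgap4, 0.516 for Homer1 and -4.15 for Homer3. The inhibitor ratio differed by 13.6 per 100 subunit transcripts, or 7.67 on raw counts. No share changed direction among those whose genotypes did not overlap. Camk2a had 116 to 168 counts per library and Camk2d 2 to 12; an edgeR adjusted p above the threshold does not show equal levels.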
